A study of Mus musculus with 18 samples.

Results

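The late response of C2C12 myotubes to dexamethasone was described across 19057 genes from 10 of the 18 arrays of the series, the 5 arrays of cultures treated for 24 h and the 5 arrays of their 24 h vehicle controls, chosen by sample title. C2C12 is an established mouse myoblast line, and its myotubes are the multinucleate, fibre-like cells that form when the myoblasts fuse in low serum. The treated group received 1 uM dexamethasone (Dex, a synthetic glucocorticoid), the control group received ethanol at 0.01% of the medium volume, and medium with 2% horse serum was common to both. The labels give no genetic change in either group, so all values come from this line. The remaining 8 arrays, 4 with Dex and 4 with ethanol for 6 h, were used only to show where the 24 h response differed. The text on the design speaks of triplicates while the titles number 5 samples per group. Whether the cultures were separate is not said in any label, and the p-values therefore reflect the spread between arrays, which may be technical.

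Glucocorticoids bind a receptor in the cytoplasm that moves to the nucleus, binds short palindromic DNA elements and raises or lowers the transcription of nearby genes, and it also dampens other transcription factors. Some targets respond at once, while others follow after new proteins have been made. In skeletal muscle, long exposure is known for loss of muscle mass, a shift of fuel use towards lipid and the release of amino acids. The account below begins with the size of the response and its relation to intensity, goes on by function from secreted proteins and steroid enzymes through signalling, membrane, nuclear and metabolic genes, and ends with the 6 h values, promoters, neighbouring genes and probes without a gene name.

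Within each 24 h group, values of any pair of arrays correlated between 0.995 and 0.999 across genes, which describes the arrays only, since genes are not independent replicates. Array medians lay between 85.2 and 86.8 intensity units. The myotube label was borne out by 11 of 11 measured myotube markers (of a list of 12) lying above 2 times the array median, and their summed intensity ranged from 144340 to 166296 with ethanol and from 142926 to 156423 with Dex. Of these, Actn2 and Ckm rose and Myog fell (log2 fold changes 0.45, 0.30 and -0.32), each near the threshold (limma adjusted p = 0.0488, 0.0458 and 0.0465). Each of these calls was lost without one or another single array of either group (adjusted p up to 0.134 for Actn2, 0.0959 for Ckm and 0.0954 for Myog). None of the 5 osteoblast, 4 macrophage or 5 endothelial markers measured lay above that level, nor did adipocyte markers other than Pparg (1 of 6). Of 5 fibroblast markers 2 did, Pdgfra, which rose, and Pi16, which fell. Of 6 proliferating myoblast markers measured 3 did, among them Myod1, which was not called, and Cdk1, which rose. Both arrays numbered 1 received the lowest array weights of their groups (0.646 with ethanol and 0.583 with Dex).

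At 24 h, 1981 of 19057 genes (10.4%) passed limma's moderated test at a Benjamini-Hochberg adjusted p under 0.05, 1002 of them higher (5.26%) and 979 lower (5.14%) with Dex. The word called is used below for such genes, and rose and fell refer to them only. Because RNA was measured in bulk, fewer cells that express a gene and less of its RNA per cell cannot be told apart. The groups did not overlap for 3089 genes (16.2%, of which 8.38% were higher and 7.83% lower as shares of all genes), and 1692 of the called genes were among these. Most changes were small. Of the called genes, 779 that rose and 758 that fell moved at least 1.2-fold, 183 and 126 moved at least 1.5-fold (1.62% of all genes), and 81 and 34 moved at least 2-fold. A 4-fold change was reached by 15 rises and 3 falls, and an 8-fold change by 6 rises and by no fall. The median called gene moved 1.26-fold when higher and 1.25-fold when lower, while the median log2 fold change of all genes was -0.00. In the directions of least spread, the deviations of the arrays from their group means were almost empty (3 of 8 possible directions), and the test was given 5 residual degrees of freedom for that reason. A plain comparison of the groups, without this correction, called 4168 genes, 2124 higher and 2044 lower.

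The number and the size of the changes went with intensity. The genes were divided into 5 quintiles by mean intensity over the 10 arrays, and the share called was 2.05% in the dimmest quintile (64.5 to 77.3 units), 2.97% in the second, 6.51% in the third, 20.9% in the fourth and 19.5% in the brightest (545 to 32342 units). Rises and falls numbered 47 and 31 in the dimmest quintile, 54 and 59 in the second, 121 and 127 in the third, 415 and 383 in the fourth and 365 and 379 in the brightest. None of the called genes in the dimmest 2 quintiles changed 1.5-fold, against 19 in the third, 172 in the fourth and 118 in the brightest. The fourth quintile, with intensities from 128 to 544, thus held more large changes than the quintile above it, 105 rises and 67 falls against 64 and 54. In the dimmest quintiles the most significant falls were those of Prss32 (-0.27) and the complement receptor Cr2 (-0.44), and neither kept its call as the mean of its probes (adjusted p = 0.278 and 0.105). The median residual SD on the log2 scale differed little between quintiles (0.103, 0.108, 0.114, 0.124 and 0.111). The table used here holds no detection p-values, and a dim probe keeps a background share that shrinks its fold change. Among the 81 rises of at least 2-fold, 12 started from an ethanol mean at or under the array median, and of the 34 falls of at least 2-fold, 2 ended at or under it.

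**Figure D1:**
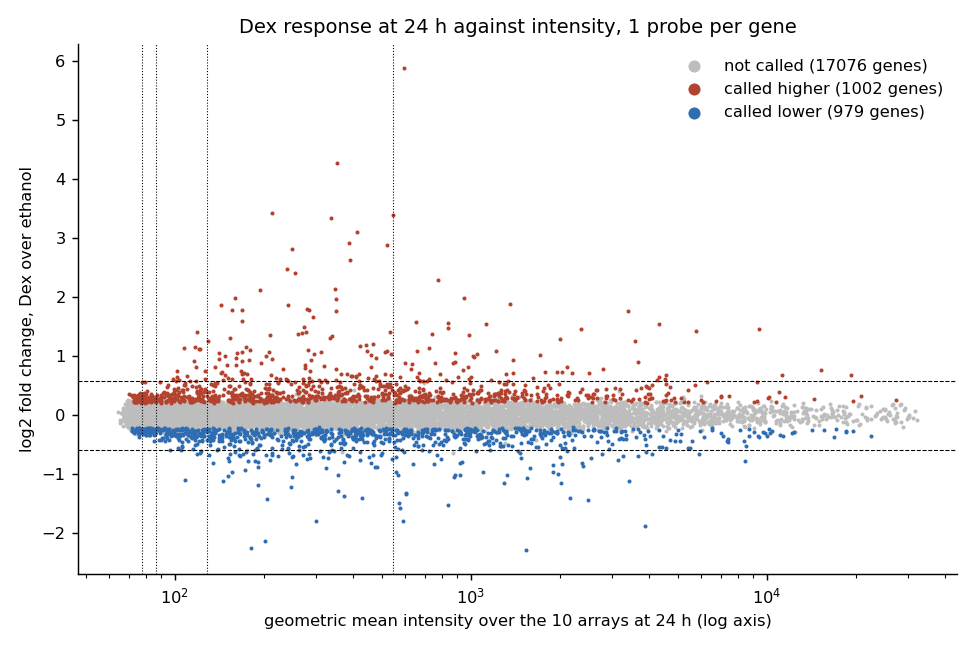
Log2 fold change (Dex over ethanol, vertical axis) of 19057 genes against their geometric mean intensity over the 10 arrays at 24 h (horizontal log axis). Red points are the 1002 genes called higher, blue points the 979 called lower, dotted lines divide the intensity quintiles and dashed lines mark 1.5-fold, which no called gene of the dimmest 2 quintiles passed.

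**Figure D2:**
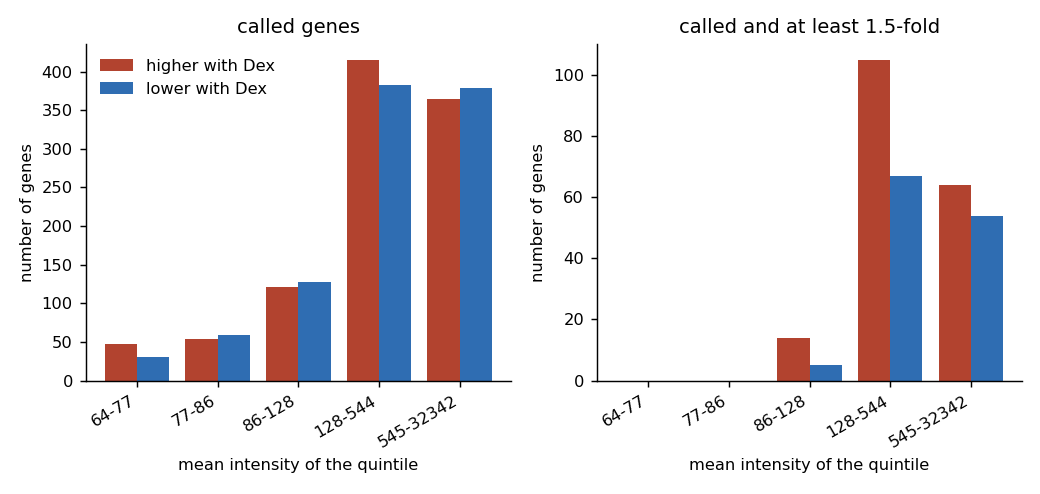
Number of called genes (left) and of called genes changed at least 1.5-fold (right) in each quintile of mean intensity, red for higher and blue for lower with Dex. The fourth quintile held the most of both, with 415 rises and 383 falls on the left and 105 and 67 on the right.

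Several of the strongest late rises were in genes of secreted plasma proteins. Lbp, which carries bacterial lipopolysaccharide to its receptor, read 94.6, 92.5, 100.3, 95.7 and 86.5 in the ethanol arrays and 600.1, 761, 558, 760.0 and 660.3 in the Dex arrays. It rose by 2.82 on the log2 scale (SE 0.09, limma adjusted p = 1.66e-13), and the groups lay far apart. Gpx3, the extracellular glutathione peroxidase, read 148, 168, 169, 158 and 147 with ethanol and 1079, 817, 967, 1217 and 837 with Dex, a rise of 2.63 (SE 0.10, limma adjusted p = 3.09e-12). Selenop, the plasma selenium carrier, read 159, 177, 158, 179.5 and 155 with ethanol and 799, 605, 835, 779 and 653 with Dex, a rise of 2.14 (SE 0.09). Both are selenoproteins, and every Dex array exceeded every ethanol array for each of them. All 3 rose further at 24 h than at 6 h, where the log2 fold changes were 0.97 for Lbp, 0.79 for Gpx3 and 0.79 for Selenop (adjusted p of the difference between times 4.19e-07, 8.65e-06 and 0.00377). Orm1, an acute-phase lipocalin, showed the widest gap between times in the text, 4.27 against 1.89 at 6 h, although adding 50 units to every value lowered its 24 h value to 3.62.

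The other rises among the 16 largest came from a mix of roles. Mt2, a metallothionein that binds zinc and copper, went from 142 ± 14.98 to 1107 ± 369 (SD, n = 5 each), with Dex array 2 at 1754 and the others at 1019 or less. Plin4, a lipid droplet coat protein, rose by 2.88 and Pdk4, the kinase that shuts off pyruvate dehydrogenase, by 2.29. Ifi207, an interferon-inducible member of the p200 family, rose by 2.47 from 102 ± 8.16 to 567 ± 87.5, and more than at 6 h (1.43). Ppl, which encodes the cytolinker periplakin, rose by 1.99, or by 0.92 as the mean of its probes. Also rising were 3 glandular kallikreins, serine proteases of the Klk1b cluster, Klk1b26 by 2.12, Klk1b21 by 1.79 (0.79 as the mean of its probes) and Klk1b27 by 1.67. Their sequences are close to each other, so the probes may read more than 1 of them. The pancreatic amylase gene Amy2a5 rose by 3.34 with its brightest probe and by 1.14 as the mean of its 3 probes, and it shares near-identical sequence with Amy1. Angptl7, a secreted angiopoietin-like protein, rose by 3.42 (2.31 as the mean of its probes), the vasoconstrictor endothelin 1, Edn1, by 3.11, and Fkbp5, a receptor co-chaperone, by 3.40, less than at 6 h (3.93). The receptor targets Tsc22d3 and Per1 rose by 1.43 and 1.35. The uncharacterised transcript 4930486L24Rik rose by 2.41, against 0.46 at 6 h.

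Falls were smaller than rises. Cxcl12, the chemokine that holds progenitor cells in their niche, read 952, 991, 961, 1017 and 1048 with ethanol and 349.7, 319, 355, 336 and 308 with Dex, giving -1.58 on the log2 scale (SE 0.07, limma adjusted p = 2.08e-11). The probes of Cxcl12 differed, and their mean gave -0.80. Vcam1, an adhesion molecule of the immunoglobulin family, was among the tightest results, 963, 959, 935, 960.4 and 968 with ethanol against 384, 383, 384, 357 and 407 with Dex (-1.32, or -0.38 as the mean of its 4 probes, of which 1 was called). Grem1, a secreted antagonist of bone morphogenetic proteins, fell by 1.42, from 342 ± 66.1 to 127 ± 15.1. G0s2, an inhibitor of triglyceride lipase, fell by 1.496. The early growth response factor Egr3 (-1.52) and the lipase inhibitor Angptl4 (-1.33) fell too, with means over their probes of -0.81 and -0.64. Mthfd2, the mitochondrial folate enzyme, had a wide spread, 7701, 4845, 2898, 4028 and 2692 with ethanol and 802, 1895, 1440.2, 1487 and 2472 with Dex. Its highest ethanol value and its lowest Dex value were both in arrays numbered 1, and the same held for Chac1, a glutathione-degrading enzyme (3757 ± 1441 against 1379.7 ± 407). The fitted changes had standard errors of 0.27 for Mthfd2 (-1.44) and 0.22 for Chac1 (-1.41). Fam167a, of unknown function, fell by 1.41. The remaining genes among the 16 largest falls were the hormone Fgf21 (-2.29), the cholesterol hydroxylase Ch25h (-2.25), the matrix protein Spon2 (-1.88, or -0.99 as the mean of its probes), the glutamate carrier Slc1a3 (-1.80), the pseudokinase Trib3 (-1.79, or -1.15 as the mean of its probes) and Sprr2k, which is described with the 6 h values.

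**Figure D3:**
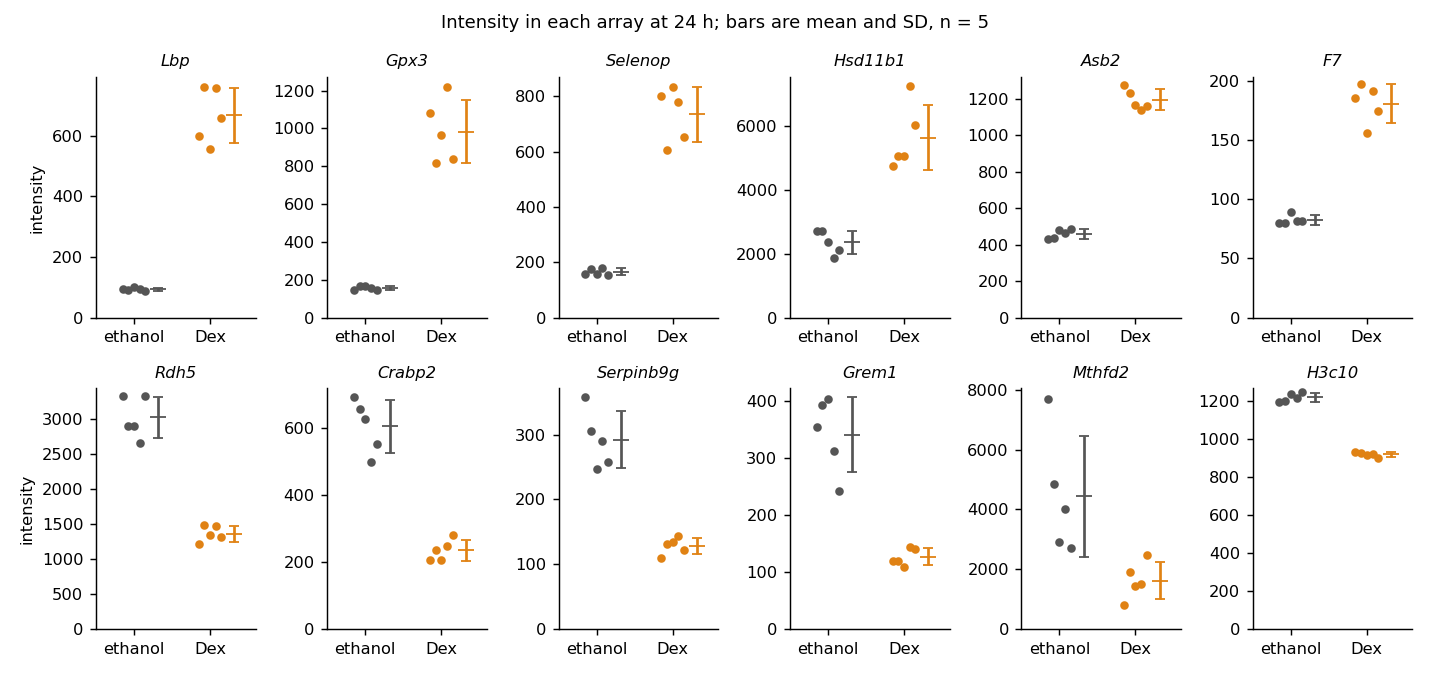
Intensity of 12 genes in each of the 10 arrays at 24 h (vertical axes, linear from 0), grey for ethanol and orange for Dex, with mean and SD over 5 arrays beside the points. In every panel the groups are apart, and Mthfd2 shows the widest spread, from 2692 to 7701 with ethanol and from 802 to 2472 with Dex.

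Genes of steroid and retinoid handling rose and fell in similar numbers. Among 240 measured cytochrome P450, aldehyde, steroid and retinoid enzymes 15 rose and 13 fell (11.7% called, against 10.4% of all genes, with a median log2 fold change of 0.00). Hsd11b1, the reductase that regenerates active glucocorticoid inside cells, read 2712, 2709, 2354, 1869 and 2101 with ethanol and 4755, 5064, 5062, 7250.2 and 6007 with Dex. It rose by 1.26 on the log2 scale (SE 0.12, limma adjusted p = 8.93e-07) with no overlap. H6pd, which supplies the NADPH that this reductase uses in the endoplasmic reticulum, read 473, 439.6, 445, 465 and 433 with ethanol and 894, 1043, 946, 957 and 976 with Dex, a rise of 1.09 (SE 0.07). H6pd was in no class and was chosen after its values were seen. The flavin monooxygenase Fmo1 rose by 1.16 (0.42 as the mean of its probes) and the sulfotransferase Sult1a1 by 1.13. On the retinoid side, Crabp2, which carries retinoic acid to its nuclear receptor, fell from 606 ± 79.96 to 235 ± 31.4 (-1.37, SE 0.10). Rdh5, a retinol dehydrogenase, read 3316, 2894, 2891, 2650.0 and 3322 with ethanol and 1205, 1478, 1334, 1467 and 1307 with Dex, giving -1.15 on the log2 scale (SE 0.08). Aldh3a1, an aldehyde dehydrogenase, fell by 1.02. At 6 h Rdh5 stood at 0.41 and Aldh3a1 at 0.28, neither called, and both differed between the times (adjusted p = 3.6e-05 and 0.00264).

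Cytosolic protein kinases pass signals on by phosphorylating other proteins. Of 188 measured, 17 rose and 3 fell (10.6% called), and with the mean of each gene's probes 11 rose and 5 fell. Among the 126 above the median intensity 14.3% were called, against 18.2% of all such genes. The falls numbered 7 without Dex replicate 1, 6 without Dex replicate 5 and 5 without ethanol replicate 1, 4 or 5 or Dex replicate 2. Without both arrays numbered 1, 21 rose and 11 fell. Mapk14, which encodes the stress kinase p38 alpha, read 653, 699, 806, 747 and 724 with ethanol and 1247, 1132, 1092, 1179.9 and 1043 with Dex, a rise of 0.65 (SE 0.08). Map3k6, a kinase upstream of stress-activated kinases, rose by 0.76, less than at 6 h (1.35, adjusted p of the difference 0.0407). Hipk2 and Pim3 rose by 0.50 and 0.43. Within this class the largest change was that of the cyclic GMP-dependent kinase Prkg2, from 2259 ± 205 to 1075 ± 79.5 (-1.07, SE 0.08), and this fall was larger than at 6 h (-0.46). Cyclic nucleotide genes gave 4 rises and 4 falls of 65. The regulatory subunit Prkar2b of the cyclic AMP-dependent kinase rose by 0.72 from 1953 ± 47.3 to 3213 ± 94.4, and the adenylyl cyclase Adcy7 fell by 0.89 from 648 ± 39.4 to 351 ± 32.4.

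Receptors changed in part within families. Receptor tyrosine kinases gave 3 rises and 4 falls of 53 (13.2% called). Both platelet-derived growth factor receptors were called, in opposite directions: Pdgfra read 285, 295, 268, 228 and 244 with ethanol and 369, 362, 365, 446 and 456 with Dex, while Pdgfrb read 279.7, 289, 296, 274 and 218 with ethanol and 162, 169, 152, 169.8 and 198 with Dex. The fold changes were 0.60 (SE 0.09) and -0.67 (SE 0.09) on the log2 scale. Only 1 of the 2 Pdgfra probes was called higher. Mertk, a receptor for the uptake of dying cells, rose by 1.16, the insulin receptor Insr by 0.46, and the ephrin receptor Epha2 fell by 0.52. The call for Insr was lost with the mean of its probes (0.16, adjusted p = 0.0779). G-protein-coupled receptors were called in 15 of 222 cases (6.76%), 8 higher and 7 lower, and 12 were lower without Dex replicate 2. The neuropeptide Y receptors Npy4r and Npy1r rose by 1.30 and 0.74 from ethanol means near the array median, 98.5 ± 6.34 and 78.7 ± 4.44. Of 57 G protein and Rgs genes, 3 rose and 7 fell, among them Rgs2 (0.58) and Rgs10 (-0.54). Cytokine receptors were even, 5 and 5 of 78, led by the interleukin 6 receptor Il6ra (0.92). Il1rn, which is an antagonist of the interleukin 1 receptor rather than a receptor and came in through its name, rose by 0.96 (0.26 as the mean of its probes). Without ethanol replicate 2 the rises in this class were 3. With all 18 arrays the falls of G protein genes were 4.

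Ras and Rap genes were called in 14 of 69 cases (20.3%, 6 higher and 8 lower), with 5 falls by the mean of probes. Rasl12, a Ras-like GTPase, rose by 0.85, while Rerg, a Ras-like inhibitor of growth, fell by 1.03 from 216 ± 20.9 to 106 ± 5.24. Of 324 genes for vesicle coats, Rab GTPases and SNAREs, 18 rose and 28 fell (14.2%), with a median log2 fold change of -0.04. Most of them were bright: of the 259 above the median intensity 16.2% were called, against 18.2% of all such genes. The exocytic GTPase Rab3d rose by 0.87 and its rise was greater than at 6 h (0.37). Rab26os, an antisense-named transcript that entered this class by its symbol, rose by 0.66, and since the strand read by the probe was not checked here it cannot be told from Rab26.

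At the membrane, ion channels gave 14 rises and 3 falls of 196 measured (8.67% called, against 10.4% of all genes). Among the 59 above the median intensity 16.9% were called, against 18.2% of all such genes. Of the 196, 137 lay below the median intensity, and the rises numbered 8 when such genes were left out or when 50 units were added. The falls numbered 6 without ethanol replicate 5, 5 without ethanol replicate 1 or 3 or Dex replicate 1, and 7 without both arrays numbered 1. Kcnk5, a two-pore potassium channel, went from 329 ± 33.2 to 519.5 ± 60.4 (0.66), Best1, a calcium-activated anion channel, from 229 ± 17.99 to 355 ± 25.6 (0.63), and Orai1, the pore of store-operated calcium entry, from 691 ± 19.9 to 903 ± 56.8 (0.38). The mechanosensitive channel Piezo2 fell by 0.58. Solute carriers gave 19 rises and 10 falls of 231 (12.6%). Slc10a6, a carrier of sulfated steroids, read 73.0, 74.6, 80.7, 77.4 and 70.5 with ethanol and 288, 290.5, 224, 287 and 289 with Dex, a rise of 1.87 (SE 0.08, limma adjusted p = 1.12e-11). Slco4a1, an organic anion carrier, rose by 1.06. The iron exporter ferroportin, Slc40a1, fell from 1270.4 ± 159.9 to 619.8 ± 106 (-1.04, or -0.43 as the mean of its probes), and Slc5a5, the sodium-iodide carrier, fell by 0.71.

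Aquaporins and carbonic anhydrases were called in 4 of 26 cases, each time lower, or 2 with the mean of probes. These were the water channels Aqp1 (-0.73) and Aqp5 (-0.66), the muscle carbonic anhydrase Car3 (-0.63) and Car9 (-0.35), a form better known from hypoxic cells, whose groups overlapped. Aqp5 read 3676, 4087, 3366, 3518 and 2955 with ethanol and 2159, 1878, 2289.7, 2527 and 2260.4 with Dex, so the groups were apart. The calls for Aqp1 (adjusted p = 0.0514) and Car9 (0.145) were lost with the mean of their probes, and that for Car9 with all 18 arrays (0.494). Gap and tight junction genes gave 3 rises and 2 falls of 50. Connexin 43, Gja1, fell by 0.58 and the muscle connexin Gjd4 rose by 1.00 from 144 ± 9.94 to 288 ± 17.96.

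Among guidance and adhesion genes, falls outnumbered rises. Semaphorins, ephrins, netrins, Slits and their receptors gave 3 rises and 8 falls of 77 (14.3%), with 5 falls by the mean of probes and 13 without both arrays numbered 1. Among the falls were Sema7a, a membrane-anchored semaphorin (-0.72), Ntn5, a netrin whose groups overlapped (-0.81), and Slit2, a secreted guidance ligand (-0.74). Slit2 had 7 probes of which 1 was called, and their mean was -0.15 (adjusted p = 0.0991), so this call rests on 1 probe. Over the 42 class members above the median intensity, the mean log2 level of each Dex array lay between -0.13 and -0.10 relative to the ethanol mean, below the range of -0.01 to 0.01 of the ethanol arrays. Such a gap between the groups was not particular to this class. It was also present, up or down, for cytosolic kinases, ion channels, vesicle genes and chromatin modifiers, among other classes. Immunoglobulin-like adhesion molecules and tetraspanins gave 2 rises and 8 falls of 86 (11.6%). Alcam, an adhesion molecule of activated leukocytes, fell by 0.44. Cdon, a co-receptor that promotes myoblast differentiation, read 1518, 1628, 1623, 1435 and 1491 with ethanol and 806, 736, 754, 847 and 809.8 with Dex, giving -0.96 on the log2 scale (SE 0.07, limma adjusted p = 3.09e-08). The heparan sulfate genes and glycosyltransferases (187 measured) rose in 11 cases and fell in 16, or 10 with the mean of probes. The sulfatase Sulf2, which trims sulfate from heparan chains outside the cell, rose by 1.07, and the heparan proteoglycan Sdc2 (syndecan 2) fell by 0.66 from 7449.5 ± 366 to 4705 ± 232.

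Protease inhibitors fell in 13 and rose in 4 of 123 cases (13.8%), while proteases rose in 16 and fell in 10 of 188 (13.8%). The median inhibitor moved by -0.01 on the log2 scale. The list holds Serpina3n, an acute-phase antichymotrypsin-like serpin with the largest change of all genes called (5.88, or 5.18 with 50 units added). Cst3, the cysteine protease inhibitor cystatin C, rose from 11689 ± 528 to 19972 ± 2118 (0.77), against -0.03 at 6 h. The granzyme B-inhibitor relatives Serpinb9g (-1.19) and Serpinb9f (-0.97) fell. Serpinb9g read 359, 306, 247, 291 and 258 with ethanol and 109.6, 130.5, 134, 143 and 122 with Dex. These relatives are close paralogs, so their probes may not be independent. Serpinf1, which encodes the anti-angiogenic factor PEDF, fell from 10277 ± 819.6 to 7130.3 ± 422 (-0.53). Cstf2, an RNA cleavage factor, was counted among the falls through its symbol only (-0.30), and its call was lost without replicate 4 of either group (adjusted p = 0.0509 and 0.0549). Leaving out genes below the median intensity took the falls to 7, and leaving out ethanol replicate 5 took the rises to 7. Complement and coagulation genes gave 7 rises and 3 falls of 62. Coagulation factor F7 read 80.0, 80.1, 89.6, 81.5 and 82.0 with ethanol and 186, 198, 156, 191 and 174 with Dex, a rise of 1.13 (SE 0.08) against 0.20 at 6 h, and the C1q-related C1qtnf5 rose by 0.65.

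Histone genes were lower more often than any other of the 51 classes. Of 65 measured, 20 fell and 1 rose (32.3% called, against 10.4% of all genes), and the median log2 fold change was -0.11. Core histones wrap DNA into nucleosomes, and most of their genes are made in step with DNA synthesis, while a few, such as H3f3b, supply replacement histones. All 20 that fell lay above the median intensity, where 18.2% of all genes were called. Of these 20, 16 did not overlap between groups, against 827 of all 979 called falls. The falls were uneven between kinds, 7 of 14 H2B genes, 6 of 12 H4, 4 of 11 H3, 2 of 19 H2A and 1 of 9 linker H1 genes. The median log2 fold change was -0.23 for H2B, -0.25 for H4 and -0.17 for H3, against 0.03 for H2A and 0.03 for H1. Of the 9 H1 genes 7 lay below the median intensity, and both brighter ones had values below 0 (-0.38, called, and -0.22, not called). All 14 H2B genes had a value below 0, against 7 of 19 H2A genes. The falls were small, from -0.25 to -0.64. H2bc21 fell most, from 306 ± 35.03 to 195 ± 14.4 (-0.64, SE 0.09). H3c10 had little spread, 1199, 1200.3, 1241, 1217 and 1250.5 with ethanol and 934, 929, 916, 923 and 899 with Dex (-0.41, SE 0.06, limma adjusted p = 0.00027). Only 1 of the 3 H3c10 probes was called lower. H4c8 (-0.45), H3c6 (-0.43) and the replacement histone H3f3b (-0.27) fell as well. The rise was that of H3c3, a dim probe that went from below the array medians (85.2 to 86.8) to their level (70.3 ± 2.33 to 85.2 ± 5.25). Across the alternatives in processing other than the plain comparison, 15 to 21 histone genes fell and 0 to 2 rose.

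At 6 h, 2 of the 65 histone genes were called. The 20 genes that fell at 24 h had a median of -0.06 at 6 h against -0.32 at 24 h, and the difference between times was called for 1 of them, H2bc21. Histone paralogs share most of their coding sequence, so several probes may read the same transcripts. Of 6 proliferating myoblast markers measured, Cdk1 rose (0.43, or 0.07 and not called as the mean of its probes, adjusted p = 0.553) and the others were not called. Their summed intensity was 1457 to 1587 with ethanol and 1395 to 1630 with Dex. The list also holds myoblast lineage factors, and Myod1 alone had means of 698 with ethanol and 577 with Dex. The sum is therefore not a measure of cycling alone. The part of cycling cells in the histone result was not tested. The mean level of all 46 brighter histone genes lay between -0.21 and -0.06 in the Dex arrays and between -0.07 and 0.05 in the ethanol arrays, so as a whole these overlapped.

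**Figure D4:**
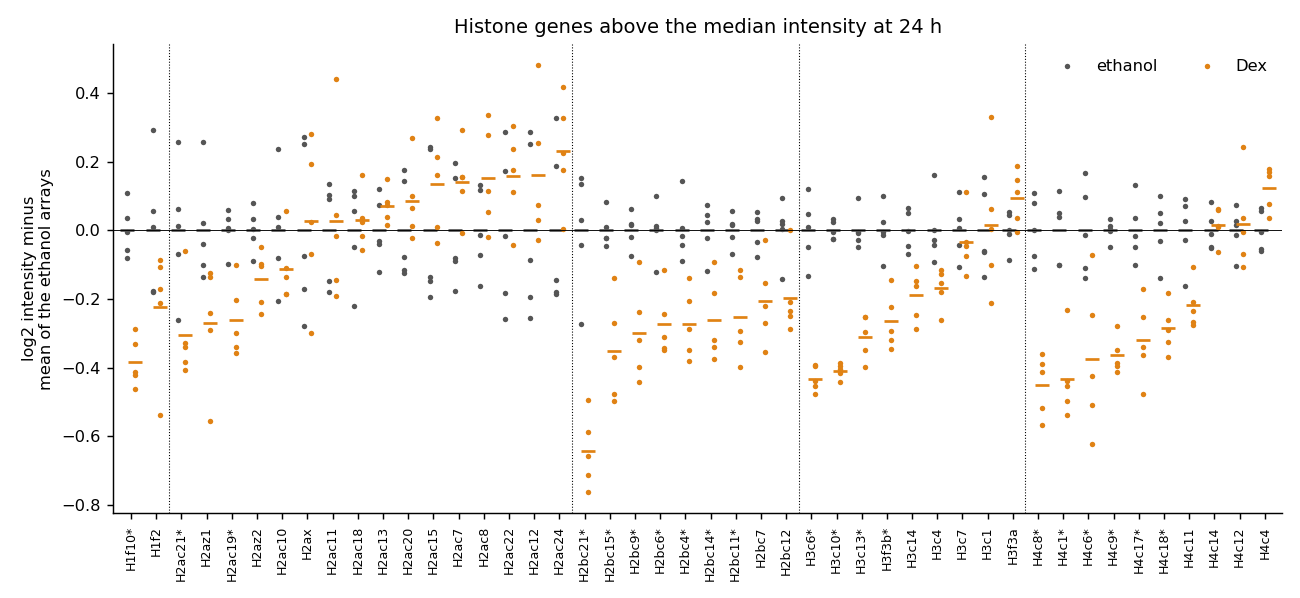
Log2 intensity of the 46 histone genes above the median intensity in each array at 24 h, relative to the mean of the 5 ethanol arrays of that gene (vertical axis), grouped by kind (H1, H2A, H2B, H3, H4) with grey points for ethanol, orange points for Dex and dashes for group means. Asterisks mark the 20 called genes, and the group means of H2B genes all lie below 0.

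Chromatin modifiers gave 14 rises and 7 falls of 182 (11.5%). Among the 149 above the median intensity 14.1% were called, against 18.2% of all such genes. Leaving out Dex replicate 1 gave 11 falls, and the mean of probes 4. The histone demethylase Kdm2a rose by 0.44, while Phf10, a subunit of the BAF remodelling complex, fell from 4225 ± 700.1 to 2589 ± 351 (-0.70) with the extremes in the arrays numbered 1, its highest ethanol value (5164) and its lowest Dex value (2086). Among 436 zinc-finger genes 6.42% were called, 10 higher and 18 lower. Zfp36 (tristetraprolin), which speeds the decay of cytokine mRNAs, rose by 0.82 and Zbtb7c fell by 0.73. Of 147 genes of the Fox, Sox, Runx and related families, 10 rose and 8 fell. Sox11, a neural and progenitor factor, read 2653, 3034, 2560.4, 2459.5 and 2532 with ethanol and 1408, 1122, 1425, 1537 and 1348 with Dex, giving -0.96 on the log2 scale (SE 0.09). Runx1, an activator in denervated muscle, fell by 0.58 and Foxc1 rose by 0.61. Of 98 bHLH and bZIP genes, 10 rose and 6 fell (5 and 3 with the mean of probes), among them the repressors Hes1 (-0.56) and Mxd4 (0.46). Nuclear receptors and coregulators gave 5 rises and 2 falls of 87. The estrogen-related receptor Esrra rose by 0.35 and its coactivator Ppargc1b by 0.52. Here the rises numbered 11 without Dex replicate 1 and 8 without ethanol replicate 1, 4 or 5.

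Host genes of small nucleolar RNAs and other small RNA genes were the class with the highest share of rises, 7 of 29 with no fall (24.1%), or 4 with the mean of probes. Dleu2, the host of the miR-15a and miR-16 cluster, rose from 177 ± 7.99 to 306 ± 25.9 (0.79, against 0.17 at 6 h). Snhg5 read 718, 625, 624, 542 and 611 with ethanol and 840.3, 1114, 900.0, 1077 and 1120.0 with Dex (0.69, SE 0.10), and Snhg16 rose by 0.46 with overlapping groups, its values running from 352 to 506 with ethanol and from 422 to 648 with Dex. Over the 15 brighter members, Dex arrays lay between 0.13 and 0.32 and ethanol arrays between -0.07 and 0.07 in mean log2 level. A gap of this kind was also present in other classes. Among all long non-coding genes in the RefSeq table, 18 of 417 rose and 4 fell (5.28%), and 325 of the 417 were below the median intensity.

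Genes of RNA and protein production were mostly called for small changes. Ribosome biogenesis factors rose in 13 and fell in 4 of 114 cases (14.9%). Among the 91 above the median intensity 15.4% were called, against 18.2% of all such genes. No rise in this class went past 0.33, the value of the nucleolar GTPase Gnl3. Pes1, a subunit of the complex that matures the large ribosomal RNA, was an exception and fell by 0.52. With all 18 arrays in the fit 6 of this class rose, and with the mean of probes 8. Translation factors gave 7 rises and 5 falls of 81. Eif4ebp2, a repressor of cap-dependent translation, rose by 0.70 from 403 ± 25.6 to 654 ± 66.1. Larp6, which binds collagen mRNAs and came in through its family name, rose by 0.74. Splicing factors and RNA-binding proteins fell in 20 and rose in 11 of 248 cases, or 5 rises with the mean of probes. Of the 190 above the median intensity 16.3% were called. The ubiquitin ligases outside the classic atrophy genes (415 measured) rose in 27 and fell in 17. The mean of probes gave 17 rises. Without ethanol replicate 1 the falls numbered 28, and without Dex replicate 1 they numbered 30. Asb2, the muscle ligase adaptor that targets filamins, read 429, 435, 482, 462 and 486 with ethanol and 1278, 1231, 1169.5, 1139 and 1159.5 with Dex. It rose by 1.38 (SE 0.07, limma adjusted p = 1.48e-10), and its value at 6 h was 0.03, not called (adjusted p of the difference between times 0.00033). Spsb1 and Cish, both adaptors with a SOCS box, rose by 1.04 and 0.81, the latter with Dex array 2 at 276 and the others at 144 or less.

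Lipid and nucleotide enzymes differed by class. Phospholipid, phosphoinositide and sphingolipid enzymes gave 20 rises and 6 falls of 187 (13.9%). Among the 119 above the median intensity 19.3% were called, close to the 18.2% of all such genes. Pld1, a phospholipase that makes phosphatidic acid, read 168, 157, 166, 166 and 176 with ethanol and 422, 483, 432, 414 and 429 with Dex, a rise of 1.39 (SE 0.07, limma adjusted p = 1.32e-10). Sphk1, which makes sphingosine 1-phosphate, rose by 0.72 from 1592 ± 122 to 2634 ± 287, and Ugcg, which makes glucosylceramide, fell by 0.55 from 6694 ± 440.4 to 4581 ± 398. Over the 119 brighter members, Dex arrays lay between 0.03 and 0.06 and ethanol arrays between -0.01 and 0.01 in mean log2 level, a separation shared with other classes. Without both arrays numbered 1 the falls numbered 15. Purine and pyrimidine enzymes gave 13 rises and 3 falls of 104 (15.4%), or 8 rises with all 18 arrays. Above the median intensity 19.2% of 78 were called, also close to the 18.2% of all such genes. Ampd3, the AMP deaminase, read 761, 714, 699.5, 598 and 824 with ethanol and 1359.9, 1461, 1402, 1501 and 1485 with Dex, a rise of 1.01 (SE 0.08). Xdh, xanthine dehydrogenase at the end of purine breakdown, rose by 0.82, more than at 6 h (0.20), and Samhd1, which degrades deoxynucleotides, rose by 0.58. Of the 3 falls, 2 were Dpysl3 (-0.79) and Dpysl2 (-0.27, not called as the mean of its probes, -0.15, adjusted p = 0.145), cytoskeletal proteins named for their likeness to a pyrimidine enzyme. Fatty acid and eicosanoid enzymes gave 4 rises and 6 falls of 75, with 2 falls by the mean of probes and 8 rises and 10 falls without both arrays numbered 1. Among these, Hpgd, which inactivates prostaglandins, rose by 0.95. The 5-lipoxygenase activating protein Alox5ap rose by 0.58 while the lipoxygenase Alox5 itself fell by 0.49. The mitochondrial carriers Slc25a30 (0.67) and Slc25a16 (-0.34) moved apart, in a class with 8 rises and 7 falls of 108.

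The remaining classes had few calls or small changes. ABC transporters and ATP-driven pumps gave 3 rises and 2 falls of 85, with the lipid flippase Atp10a among the rises (0.49), and the drug exporter Abcb1b (0.52) stood lower than at 6 h (1.23). Heat-shock proteins and other folding helpers gave 7 and 6 of 124, with Hspb7, a small heat-shock protein of muscle, at 0.77. DNA repair genes gave 8 and 6 of 103. Rad54b, a helper of recombination, fell from 264 ± 63.6 to 141 ± 17.9 (-0.88, against 0.02 at 6 h), and the p53 target Ccng1 rose by 0.42. Apoptosis regulators gave 5 and 4 of 68, led by the caspase Casp4 (0.65) and the pro-apoptotic Bcl2l11 (0.45, or 0.09 and no longer called as the mean of its probes). Microtubule genes gave 6 and 7 of 117. The microtubule-tip protein Clip4 fell by 0.68 and had a value of 0.34 at 6 h (adjusted p of the difference between times 0.00265), while Map2 rose by 0.50 with its brightest probe but not as the mean of 9 probes (0.03, adjusted p = 0.718). Among MHC class I and antigen-processing genes (3 and 2 of 49), the peptide-loading factors Tapbp (-0.41) and Psme2, a proteasome activator (-0.42), fell. Cadherins gave 6 and 7 of 105 (Celsr3 0.39 and Fat1 0.35), phosphatases 8 and 4 of 140 (Ppp4r1 -0.31 and Ptpn22 -0.29), Wnt genes 2 and 3 of 69 (the Frizzled receptors Fzd5 0.52 and Fzd9 0.35) and homeobox genes 4 and 5 of 140 (Pknox2 0.55 and Meis2 -0.30). Of these, Ptpn22, Fzd5, Pknox2 and Meis2 lost their calls with the mean of probes (adjusted p = 0.0594, 0.208, 0.105 and 0.0888). Single arrays moved some of these counts: rises of cadherins numbered 3 and of homeobox genes 2 without ethanol replicate 2, rises of heat-shock genes 4 without ethanol replicate 3, rises of microtubule genes 10 without Dex replicate 2, falls of homeobox genes 8 without Dex replicate 1 and falls of DNA repair genes 3 without ethanol replicate 1 or 2. Counts of 3 or fewer also moved: over the alternatives other than the plain comparison, rises ran from 1 to 5 for the semaphorin class and for immunoglobulin-like adhesion molecules, from 1 to 6 for junction genes and from 2 to 7 for ABC transporters, and falls ran from 2 to 7 for Wnt genes and from 0 to 5 for nuclear receptors. Annexins, S100 proteins and galectins gave 5 rises and 2 falls of 39, led by Anxa4 (0.61) and Anxa11 (0.46). Imprinted genes gave 4 rises and 2 falls of 46, and the growth factor Igf2 rose from 7658 ± 1043 to 11314 ± 1078 (0.57) as did the growth inhibitor Grb10 (0.59). Of the intermediate filament genes, Krt14 fell by 1.22 and nestin, Nes, fell by 0.44 from 5953 ± 508 to 4375 ± 388. Genes known mainly by family numbers (Tmem, Fam and Ccdc) gave 22 rises and 32 falls of 485 (11.1% called). Ccdc3, a secreted protein of fat and endothelium, rose by 1.77, more than at 6 h (0.52), and Fam180a rose by 1.97. Of 1003 genes known by clone or predicted-gene numbers, 22 rose and 26 fell (4.79%), and 752 of them lay below the median intensity. The transcript 4732465J04Rik read 71.8, 76.1, 86.2, 81.4 and 76.9 with ethanol and 228, 168, 157, 163 and 162 with Dex, a rise of 1.15. Olfactory, vomeronasal and taste receptors, the receptors of sensory neurons and taste cells, were called in 37 of 1292 cases (2.86%), 19 higher and 18 lower, and 1261 of them lay below the median intensity. Leaving out such genes left 3 falls and no rise. The olfactory receptor Olfr57 had 66.6, 64.9, 62.9, 64.6 and 64.4 with ethanol and 75.1, 82.7, 86.8, 79.1 and 85.2 with Dex, a difference of 0.34 at the floor of the array. The taste receptor genes Tas1r2 (-0.67) and Tas1r1 (-0.55) fell from brighter levels, 165 ± 13.5 and 231 ± 26.5. Slamf1, a lymphocyte receptor, rose by 0.57 from values at the array floor, 65.1 ± 1.80. Genes in at least 1 of the 51 classes were called in 9.79% of cases and genes in no class in 10.9%.

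**Figure D5:**
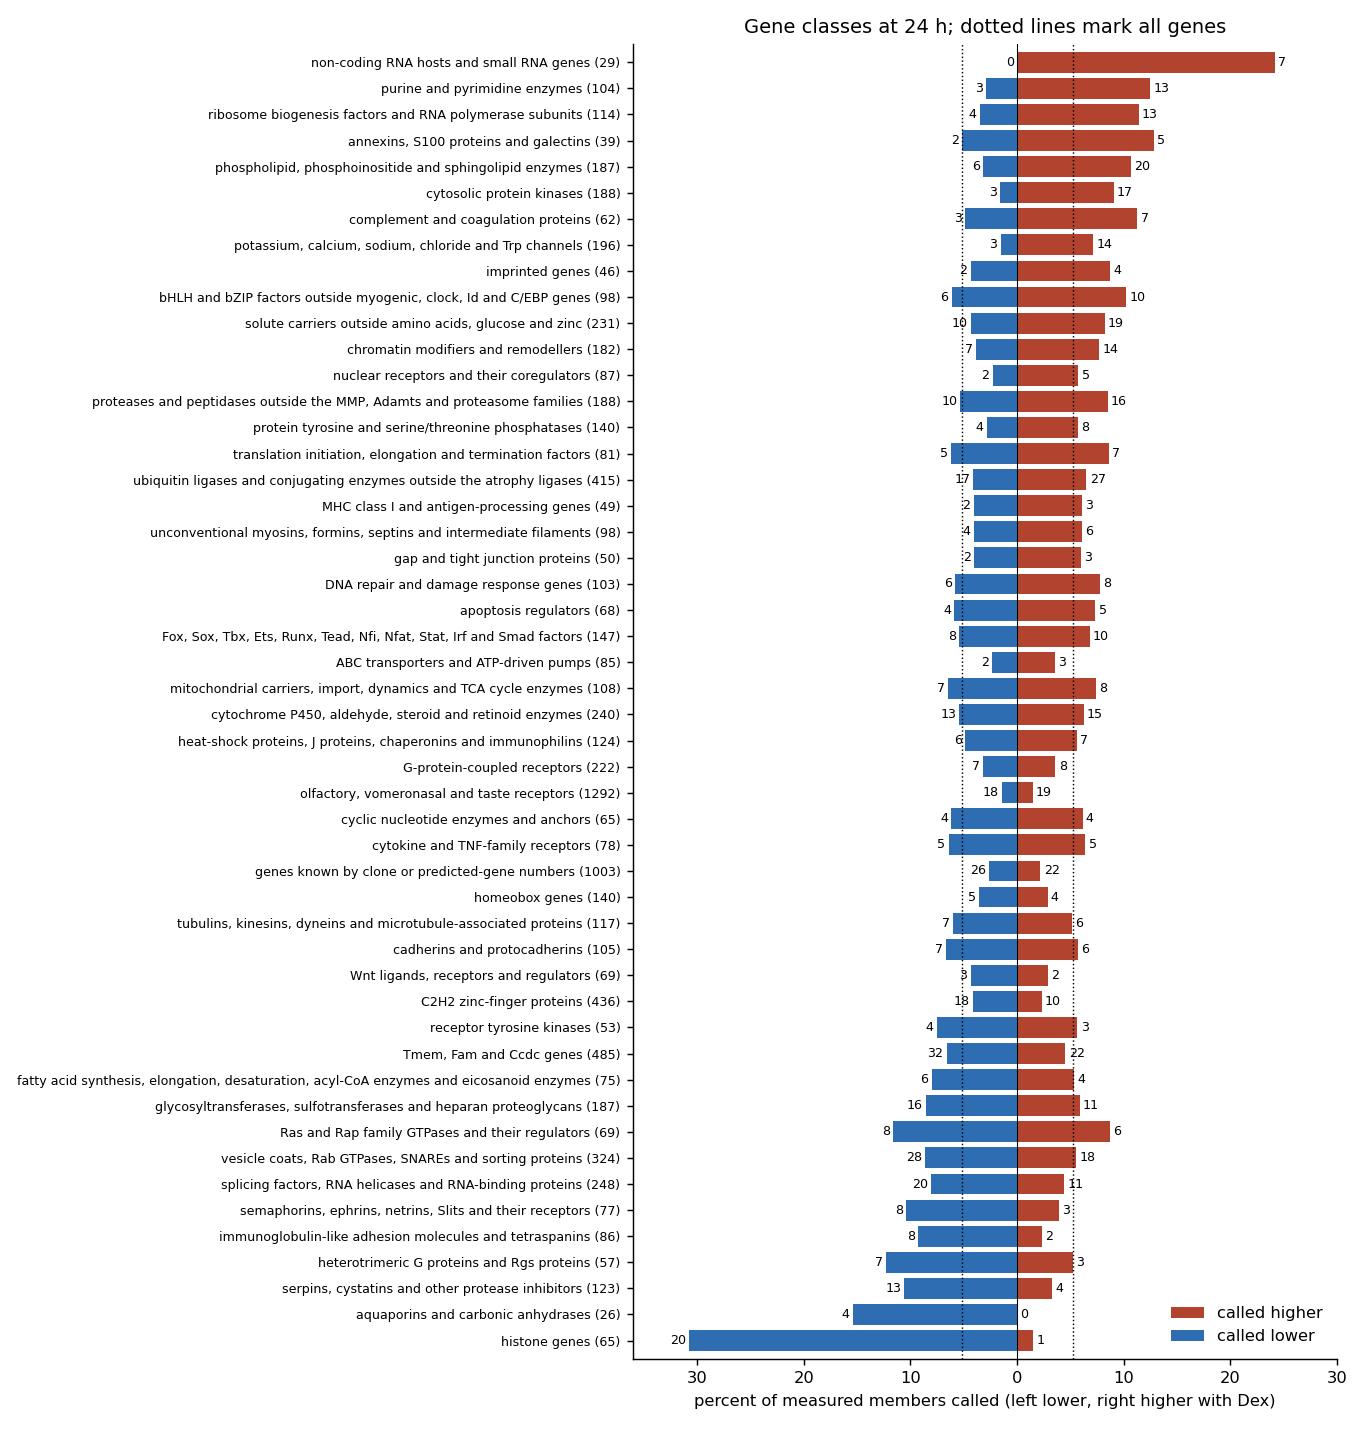
Percent of the measured members of each of 50 gene classes called lower (blue, left of 0) or higher (red, right of 0) with Dex at 24 h, with the number of members in brackets after each name and the number called at the bar ends. Dotted lines mark 5.14% lower and 5.26% higher for all genes, and histone genes (20 lower of 65) and small RNA hosts (7 higher of 29) have the highest shares on either side.

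Compared with 6 h, the late response held many genes that the earlier arrays had not called. At 6 h 667 genes (3.5%) were called by the same kind of fit. Of them 401 were called in the same direction at 24 h, which is 60.1% of the 6 h calls and 20.2% of the 24 h calls, and 11 in the opposite direction. Group sizes differ (4 arrays per group at 6 h), so the numbers of calls are not a measure of strength. The difference of the Dex effect between times was itself called for 230 genes (1.21%). Among genes called higher at 24 h, 82 had moved further up than at 6 h and 10 less far, and among genes called lower these numbers were 74 and 1. For 57 rises and 65 falls the gene was not called at 6 h and the difference between times was. Thbs2, a matrix-associated thrombospondin, read 573, 565, 698, 798 and 689.7 with ethanol and 2162, 2187, 1960.4, 1626 and 1708 with Dex at 24 h, a rise of 1.54 against 0.06 at 6 h (adjusted p of the difference 8.65e-06). Sprr2k, a small proline-rich protein of epithelia, fell by 2.13 against -0.24, from 429 ± 69.3 to 96.8 ± 6.68. Lum, the proteoglycan lumican, fell by 1.09 against 0.12 at 6 h, with ethanol array 3 at 255 and the other ethanol arrays between 132 and 157.

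Promoters of the larger rises were searched for the consensus element of the glucocorticoid receptor. RefSeq promoter windows on GRCm38.p6 (250 bases before to 50 after a transcript start) matched 15207 of the 19057 genes, with 18684 windows of 300 bases in all. The palindrome made of GNACA, any 3 bases and TGTNC, which reads the same on both strands, occurred in the windows of 75 genes (0.493%). It was found for 6 of 145 genes with a promoter that rose at least 1.5-fold (4.14%), for 4 of 65 that rose at least 2-fold (6.15%) and for 1 of 92 that fell at least 1.5-fold (1.09%), Rbms3, an RNA-binding protein gene (-0.62). Among all called rises it was found for 7 of 805 (0.87%), which is closer to the share of all genes. The match and 30 bases on either side are printed for the 6 genes that rose, in the direction of the gene, since they show which letters vary between the matches, with the 13 bases of the element in capitals.
Serpina3n, chr12:104406600-104406672, plus strand: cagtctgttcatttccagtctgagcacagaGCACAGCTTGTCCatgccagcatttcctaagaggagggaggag
Slc10a6, chr5:103629524-103629596, minus strand: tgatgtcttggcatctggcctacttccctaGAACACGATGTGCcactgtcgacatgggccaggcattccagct
Sgk1, chr10:21993672-21993744, plus strand: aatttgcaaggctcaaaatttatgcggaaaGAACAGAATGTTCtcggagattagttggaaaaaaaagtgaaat
Amy1, chr3:113577924-113577996, minus strand: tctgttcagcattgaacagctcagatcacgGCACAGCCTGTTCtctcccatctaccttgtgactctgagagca
Map3k6, chr4:133240607-133240679, plus strand: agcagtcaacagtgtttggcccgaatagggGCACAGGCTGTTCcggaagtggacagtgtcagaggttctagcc
Mt1, chr8:94178965-94179037, plus strand: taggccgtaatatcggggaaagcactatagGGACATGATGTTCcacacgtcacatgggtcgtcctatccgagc
The match began 78 bases before the start site in Serpina3n, 94 in Mt1, 163 in Slc10a6, 181 in Map3k6, 188 in Sgk1 and 216 in Amy1. In that order the genes rose by 5.88, 0.67, 1.87, 0.76, 1.54 and 1.01 on the log2 scale. Sgk1, a kinase that raises sodium transport and cell survival, had the element GAACAGAATGTTC, in which every letter of each arm pairs. Mt1, the other ubiquitous metallothionein, was already bright with ethanol, 15469.5 ± 2539 against 24725 ± 4362 with Dex. Amy1 is an amylase gene with near-identical neighbours, so its probe may read more than 1 of them. A match describes letters in a window and is not evidence of binding, and a window without one says nothing of the receptor.

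The same windows were searched on both strands for 3 other elements. TGATGCAA, the core of the amino acid response element, was found for 7 of 92 genes that fell at least 1.5-fold (7.61%) and 4 of 145 that rose as far (2.76%), against 139 of all 15207 (0.91%). At 2-fold the shares were 2 of 21 falls (9.52%) and 4 of 65 rises (6.15%). TGANTCA, the AP-1 element, was found for 19 of the 145 (13.1%) and 8 of the 92 (8.70%), against 8.17% of all. TGACGTCA, the cyclic AMP element, was found for 2 of each (1.38% and 2.17%), against 2.70% of all. None of the 4 elements contains another. Promoter CpG content was also set against the response, over genes above the median intensity, since 88.6% of genes in the quintile with the fewest CpG lay below it and 27.0% in the quintile with the most. In quintiles of rising CpG count, 25.4%, 24.0%, 17.7%, 15.5% and 16.6% of these genes were called, and 31.8%, 28.9%, 13.9%, 14.2% and 10.8% of the called genes changed at least 1.5-fold. Large changes were thus more frequent where the promoter held at most 11 CpG than where it held more.

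Some neighbouring genes were both called. Of 16245 pairs of measured genes next to each other in the RefSeq table, both were called in 210, with 82 pairs both higher, 60 both lower and 68 in opposite directions. Since 10.4% of all genes were called, some pairs are expected without any link between neighbours. Whether 210 exceeds that number was not tested. In 17 pairs both genes changed at least 1.5-fold in the same direction. Several of these were paralogs, such as the Klk1b genes, Mt1 and Mt2, and the kininogens Kng1 and Kng2 (1.77, or 0.68 as the mean of its probes, and 1.05), whose probes could cross-react. Others were unrelated neighbours, among them H6pd and Spsb1, Xdh and Ehd3 (1.11), F7 and the exchange factor Mcf2l (1.49, or 0.70 as the mean of its probes), and Grb10 and the decarboxylase Ddc (1.41). For a further pair, 4930486L24Rik and Ctla2b (1.79), relatedness was not checked, so cross-reaction is possible there too. In 1 pair both changed at least 1.5-fold in opposite directions, Hsd11b1 (1.26) and G0s2 (-1.496).

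The choice of probe limited some calls. Of the 1981 called genes, 879 had 1 probe. Of the 1102 with several, all probes were called in the direction of the gene for 135, more than 1 but not all for 159, and 8 genes had a probe called the other way. A fit over all 45281 probes called 3291 (7.27%). Of 10378 probes without a gene symbol in the platform annotation 479 were called (4.62%), with 273 rises, 206 falls and 43 changes of 1.5-fold or more. The largest of these were ILMN_2728473, which rose by 3.13 from 81.8 to 720.1, and ILMN_2668333, which rose by 1.97, and the falls were led by ILMN_2447991 (-1.03) and ILMN_1238433 (-1.02). The receptor gene itself, Nr3c1, was not called at 24 h (-0.14, adjusted p = 0.29).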

How the data were processed

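Total RNA of C2C12 myotubes was read on Illumina mouseWG-6 bead arrays, and the deposited table holds the authors' normalized intensity per probe and array, on a linear scale. Per the submitters' processing notes, lumi and limma were used, with versions, background correction and normalization not given in the sources used here, and no depth applies to arrays, whose number limits the precision. Of 45281 probes, 34885 carry 1 symbol, 18 several and 10378 none. Symbols were updated through the RefSeq table where possible (34807 probes), and the brightest probe stood for each of 19057 genes.

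Log2 intensity (no pseudocount) was fitted with limma 3.58.1 (lmFit and eBayes) in R 4.3.3, over the 5 Dex and 5 ethanol arrays at 24 h, with Benjamini-Hochberg adjustment over all genes. Array deviations from the group means held almost no spread in 3 of 8 directions (under 0.01% over bright genes, mean log2 above 12), and these directions entered as covariates so that they gave no residual degrees of freedom. The 6 h arrays were fitted in the same way, with 1 such direction of 6, and the difference between times came from 1 fit over 18 arrays. The procedure was also run on simulated data whose noise lay only in the directions that the fit keeps. That run therefore could not show whether taking out the 3 directions is right for these arrays.

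Named genes were the 16 largest rises and falls among called genes whose groups do not overlap, the 2 members with the smallest p in each class with at least 3 calls, the called gene with the smallest p per direction in each intensity quintile, and Fkbp5, Tsc22d3, Per1 and Nr3c1. Outside this rule, chosen after their values were seen, were Aldh3a1, Alox5, Amy1, Aqp1, Car9, Cish, Cst3, Cstf2, Dpysl2, H3c3, H3c6, H3f3b, H4c8, H6pd, Hipk2, Hsd11b1, Insr, Kcnk5, Klk1b27, Mapk14, Mt1, Ntn5, Orai1, Pdgfra, Pdgfrb, Pim3, Runx1, Samhd1, Sema7a, Serpinb9f, Serpinf1, Sgk1, Slc40a1, Slc5a5, Snhg16, Sult1a1, Thbs2, Ugcg and Xdh, besides the marker genes, neighbours and probes without a symbol. The 51 classes were made from symbol patterns, 1 of them is not reported here, and the genes, classes and lists were chosen with earlier results of these data known. Protein features were not analysed here.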

Additional observations from a re-analysis of the deposited data

Results flagged for a closer look

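Some values stood far from the others of their group, by the gap to the nearest array over the range of the group (above 0.71 for 5 arrays). Among 370 groups of 5 arrays, 19 held such an array, where chance alone flags about 1 in 20 groups. Dex array 2 was apart in Mt2 (1754 units), Cish (276), Esrra (1346), Cdk1 (621), Pld1 (483) and Ugcg (3874), and ethanol array 2 in Ugcg (7469). Array 3 was apart in Lum with ethanol (255) and with Dex (67.3), in F7 (89.6) and Vcam1 (935) with ethanol and in Slc10a6 (224) with Dex. Array 4 was apart in Il6ra with ethanol (141) and with Dex (194) and in Zbtb7c with Dex (251). Dex array 1 was apart in 4732465J04Rik (228), ethanol array 1 in Dpysl2 (2781), Dex array 5 in Larp6 (176) and ethanol array 5 in Pdgfrb (218). Same-numbered arrays of the 2 groups deviated in opposite directions, with correlations from -0.929 to -0.189. The 2 groups of a gene are therefore not independent in this count. The cause was not tested.

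The Dex effect differed between 24 h and 6 h for 48 of the genes in the text (limma interaction term, adjusted over all genes), given here as the log2 fold change at 24 h minus that at 6 h. Genes higher at 24 h with a larger effect than at 6 h were Orm1 (2.38), Amy2a5 (1.97), 4930486L24Rik (1.95), Lbp (1.85), Gpx3 (1.84), Thbs2 (1.48), Serpina3n (1.45), Asb2 (1.35), Selenop (1.35), Kng1 (1.27), Ccdc3 (1.25), 4732465J04Rik (1.22), Ifi207 (1.04), F7 (0.93), Ddc (0.89), Klk1b27 (0.87), Kng2 (0.84), Cst3 (0.79), Npy4r (0.76), Klk1b21 (0.73), Amy1 (0.70), Xdh (0.62), Dleu2 (0.61) and Rab3d (0.50). Those higher at 24 h with a smaller effect than at 6 h were Abcb1b (-0.71), Fkbp5 (-0.53) and Map3k6 (-0.59). Genes lower at 24 h with a value further down than at 6 h were Sprr2k (-1.90), Rdh5 (-1.56), Mthfd2 (-1.51), Serpinb9g (-1.49), Aldh3a1 (-1.30), Lum (-1.21), Serpinb9f (-1.17), Fam167a (-1.05), Clip4 (-1.02), Rad54b (-0.91), Pi16 (-0.81), Krt14 (-0.80), Crabp2 (-0.72), Phf10 (-0.68), Sox11 (-0.68), Prkg2 (-0.61), Serpinf1 (-0.61), Car3 (-0.59), H2bc21 (-0.58), Zbtb7c (-0.55) and Tapbp (-0.49). The arrays of the 6 h and 24 h groups were also separate sets, so time and array set cannot be told apart.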

How the results depend on the processing

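Of 19 alternatives, 8 changed a setting, 1 left out both arrays numbered 1 and 10 left out 1 array each. A fit that ignored the near-empty directions gave 4168 calls, of which 2124 were rises and 2044 falls. That fit credits 3 directions without spread as residual degrees of freedom. Every other alternative kept the counts within 1.5 times: 1697 with all 18 arrays, 1994 after quantile normalization, 1949 with 50 units added, 1884 without genes below the median intensity, 1454 with the mean of probes, 2209 with array weights and 2636 without both arrays numbered 1. Leaving out 1 array gave 1784 to 2250 calls, 898 to 1136 higher, 886 to 1114 lower and 293 to 319 changed at least 1.5-fold. With the replicate number as a block, 1971 genes were called and 1009 were higher. The labels do not say what same-numbered arrays share, but the values of such arrays were linked. Their deviations from the group means ran opposite to each other, with correlations of -0.929, -0.756, -0.729, -0.327 and -0.189 for numbers 1 to 5. In the first near-empty direction same-numbered arrays had similar weights, such as 0.39 and 0.402 for number 1 and -0.33 and -0.386 for number 5. The arrays of the 2 groups may therefore not be independent, and the cause of the link was not tested.

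The mean of probes shared 63.6% of the 1981 calls, and the fit of 18 arrays 82.6%. Of 183 called genes named in the text, 18 lost the call under at least 1 alternative and none reversed. Without both arrays numbered 1, Nr3c1 was called lower (-0.21, limma adjusted p = 0.0399) and Pparg higher (0.26, adjusted p = 0.039). Dim probes limit the folds, detection p-values were not used here, and the planned comparison by protein features was not run.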
